A study of Homo sapiens with 12 samples.

Results

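This account covers the microRNA genes on the arrays: every gene measured by a probe set with a single symbol that starts with MIRLET7, or with MIR and a digit, including host genes whose symbols end in HG. The rule found 195 of the 17958 genes compared, and each had 1 probe set. Of these, 180 carried the symbol of a microRNA hairpin and 15 that of a host transcript. The rule reads symbols and no measured value. Another 45 probe sets held a microRNA symbol together with other symbols and were kept out. They are the sole source for 67 microRNA symbols, so several well-known inflammatory microRNAs are not among the members.

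Total RNA came from BT549, an established human triple-negative breast cancer line, and was hybridised after labelling as sense-strand cDNA. The cells received either control siRNA (siControl) or pooled siRNAs that target c-Jun (siJun) for 72 hours. They were then exposed for 6 hours to vehicle or to TNFα, the cytokine tumour necrosis factor alpha, a driver of inflammation. This gave 4 groups of 3 arrays, siControl vehicle, siControl TNFα, siJun vehicle and siJun TNFα, 12 arrays in all. All groups are transfected cells of 1 line, c-Jun is lowered by an siRNA pool and not deleted, and since separate cultures are not named in the labels, the p-values speak for the spread between these arrays, which may be technical.

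A microRNA begins as part of a long primary transcript, which is often spliced and can also encode a protein or a long noncoding host RNA. Drosha and its partner DGCR8 cut a hairpin out of it in the nucleus, Dicer trims the hairpin in the cytoplasm, and the mature strand then guides an Argonaute protein to mRNAs that match its seed, the bases near its 5′ end. c-Jun is a subunit of the transcription factor AP-1, and TNFα activates both AP-1 and NF-κB. Probe sets for hairpin symbols report RNA that contains the hairpin region, so primary transcript, hairpin and, for microRNAs inside introns, unspliced host RNA cannot be told apart, and the mature microRNA itself is not what was measured.

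Mature sequences are shown for some of the called members described at length, so that their seeds can be compared. They are from RefSeq (GRCh38.p14), which held a hairpin entry for 162 of the 195 members and a mature one for 171. Capitals mark the seed, bases 2 to 8 from the 5′ end, and each sequence runs 5′ to 3′.
hsa-miR-21-5p: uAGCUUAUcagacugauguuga
hsa-miR-221-3p: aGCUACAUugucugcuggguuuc
hsa-miR-222-3p: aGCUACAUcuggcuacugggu
hsa-miR-23a-3p: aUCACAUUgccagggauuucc
hsa-miR-27a-3p: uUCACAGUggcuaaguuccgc
hsa-miR-24-3p: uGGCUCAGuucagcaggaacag
hsa-miR-31-5p: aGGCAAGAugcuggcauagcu
hsa-miR-15a-5p: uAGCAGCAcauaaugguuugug
hsa-miR-15b-5p: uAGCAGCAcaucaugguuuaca
hsa-miR-503-5p: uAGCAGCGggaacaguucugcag
hsa-let-7a-5p: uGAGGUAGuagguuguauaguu
hsa-let-7g-5p: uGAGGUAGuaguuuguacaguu
hsa-let-7i-5p: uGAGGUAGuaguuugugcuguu

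miR-221 and miR-222 share the seed GCUACAU, and their hairpins lie beside each other on the minus strand of the X chromosome (chrX:45746157-45746266 and chrX:45747015-45747124, GRCh38.p14). miR-23a, miR-27a and miR-24 have 3 different seeds but come from neighbouring hairpins on the minus strand of chromosome 19 (chr19:13836587-13836659, chr19:13836440-13836517 and chr19:13836287-13836359). miR-15a and miR-15b share AGCAGCA, and miR-503 has the seed AGCAGCG. The 3 let-7 microRNAs share GAGGUAG, the seed with the largest number of members, 10. In all, 47 seeds were shared by 2 or more members.

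All levels are on a log2 scale, and a gene is called changed at a Benjamini-Hochberg adjusted p under 0.05 over all 17958 genes in the limma fit to the 12 arrays. Array medians over all probe sets lay between 5.62 and 5.68. JUN had mean log2 levels of 10.35 ± 0.0052 in the siControl vehicle arrays, 11.07 ± 0.041 with siControl and TNFα, 9.83 ± 0.021 with siJun and vehicle and 10.36 ± 0.032 with siJun and TNFα (SD, n = 3). It was thus lower with c-Jun siRNA in both treatments, while the siJun TNFα arrays read about as high as the siControl vehicle arrays. Of the line's markers VIM, CD44, AXL, FN1 and ZEB1 had means of 10.44 to 12.73. ESR1 read 4.38 and PGR 3.72, while CDH1 read 4.87, EPCAM 4.20 and ERBB2 8.81, and the measured leukocyte, endothelial and erythroid markers lay between 3.70 and 4.84. Some of these markers changed too: with c-Jun siRNA CDH1 rose by 0.55 ± 0.09 in vehicle and 0.95 ± 0.09 with TNFα (limma adjusted p = 9.38e-05 and 1.85e-07), AXL rose by 0.43 and 0.39, FN1 changed by -0.45 and -0.60, and in vehicle ZEB1 changed by -0.27 and VIM by -0.11. Their part in the members' changes was not tested. Array names carry a position code, read here by inference as a plate column. All siJun vehicle arrays have column 5 and the siJun TNFα arrays columns 9, 7 and 9. The siControl vehicle arrays have columns 7, 7 and 5 and the siControl TNFα arrays columns 9, 7 and 7. For TNFα with siJun, position and treatment therefore cannot be told apart within a column. In vehicle, c-Jun siRNA also largely follows the column, since only siControl vehicle replicate 3 shares column 5 with the siJun arrays. With TNFα, column 7 holds a single siJun array and column 9 a single siControl array. The name of siJun TNFα replicate 3 reads as a second run of replicate 1, and the SD of their difference over genes was 0.121. It was the lowest of that group, whose other pairs had 0.142 and 0.133, and the range over all pairs of a group was 0.119 to 0.142. With siJun TNFα replicates 1 and 3 averaged as 1 replicate, 17 members in place of 22 were called for TNFα with c-Jun siRNA. For c-Jun siRNA with TNFα it was 16 in place of 21. The calls that ended were those of MIR107, MIR186, MIR503HG, MIR7-2 and MIR99AHG in the first (limma adjusted p 0.0503 to 0.0862) and of MIR21, MIR222, MIR29C, MIR323A and MIR34B in the second (0.0529 to 0.14).

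Most microRNA genes lay near background. The members' 12-array means ran from 2.72 to 10.03 with a median of 3.99 and quartiles of 3.39 and 4.94, while the median of all genes was 6.97 and 9 members exceeded it. Olfactory receptor genes, 356 of them and silent in most tissues, served as a measure of background: their median was 3.68 and their 95th percentile 4.64. Above that percentile lay 69 members, 59 hairpin symbols and 10 host genes, and 126 members lay at or below it. The hairpin symbols had a median of 3.89 and the host genes of 5.43. The residual SD between arrays had a median of 0.12 in the 69 brighter members, against 0.068 in all genes above the same percentile. In the 126 dimmer ones it was 0.086, against 0.089.

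**Figure D1:**
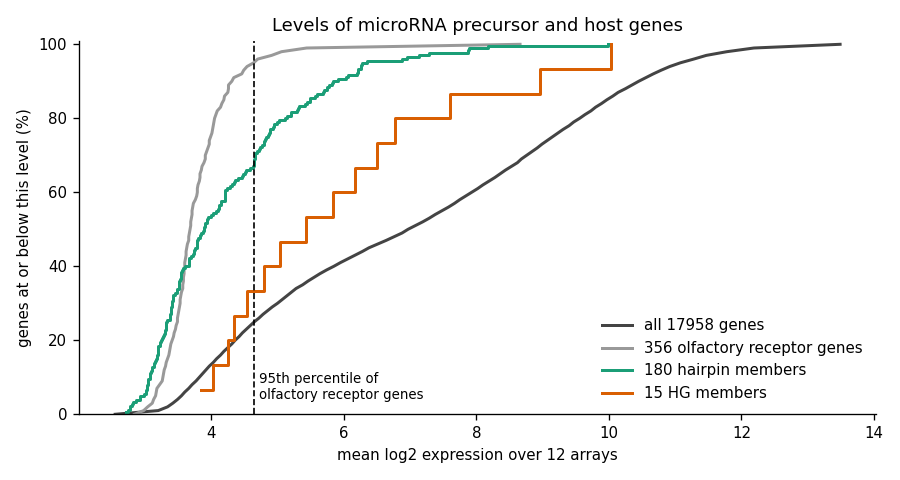
Cumulative share of genes (%) against the mean log2 expression over 12 arrays, for all 17958 genes, 356 olfactory receptor genes, 180 hairpin members and 15 HG members. The dashed line is the olfactory receptor 95th percentile at 4.64, with 126 of the 195 members at or below it.

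The brightest members were MIR503HG (12-array mean 10.03) and MIR503 (9.98), the host transcript and hairpin of a cell-cycle-related microRNA on the X chromosome. MIR31HG (8.96) and MIR21 (8.18) followed, and these 4 were the members with means above 8. Next came MIR221 (7.89), MIR27A (7.87), MIRLET7BHG (7.60), MIR25 (7.29), MIR320A (7.14) and MIRLET7I (6.95). These levels are per probe set and depend on each set's probes, so they give no ranking of transcript abundance. Of the 15 host genes, MIR600HG (6.77), MIR4453HG (6.50), MIR1-1HG (6.17), MIR1915HG (5.84), MIR137HG (5.43), MIR570HG (5.04) and MIR3667HG (4.80) also lay above the olfactory receptor percentile. MIR7-3HG, MIR99AHG, MIR4697HG, MIR9-1HG and MIR646HG lay at or below it, with means of 4.54 to 3.84.

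With control siRNA, TNFα raised 13 microRNA genes and lowered 7, that is 20 of 195 or 10.3%, against 35.7% of all genes (13.8% higher and 21.9% lower). The TNFα and vehicle arrays did not overlap in 38 members, 19.5%, against 45.3% of all genes. Among the 69 members above the olfactory receptor percentile 24.6% were called (45.9% of all genes above it), and among the dimmer 126 it was 2.38% (4.73%). The members' median change was 0.007 on the log2 scale and that of all genes -0.023. With c-Jun siRNA, TNFα raised 12 and lowered 10, 22 members or 11.3%, against 29.6% of all genes (11.3% higher and 18.3% lower), and the arrays did not overlap in 34 members, 17.4%, against 38.9%. The shares were 24.6% of the brighter and 3.97% of the dimmer members, against 38.2% and 3.36% of all genes, and the median change was -0.004 (-0.016 for all genes). With each array centred on its median the splits were 16 higher and 4 lower with control siRNA and 19 higher and 7 lower with c-Jun siRNA.

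Both TNFα comparisons, which share no arrays, called 12 members, 60.0% of those called with control siRNA and 54.5% of those called with c-Jun siRNA. All 12 kept their direction. Higher in both were MIR21, MIR221, MIR222, MIR23A, MIR27A, MIR24-2, MIR320A and MIR503HG, and lower in both were MIR1915HG, MIR31HG, MIR600HG and MIRLET7BHG. Over all genes 4264 were called in both, 66.5% and 80.2% of each list. In the plot of effects no member lies past 0.76 log2 in either direction. Of the 12, MIR24-2 (0.26 and 0.61) and MIR320A (0.37 and 0.62) lie off the line of equal effects, and their interactions were 0.35 ± 0.11 and 0.25 ± 0.11 (limma adjusted p = 0.0803 and 0.254).

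**Figure D2:**
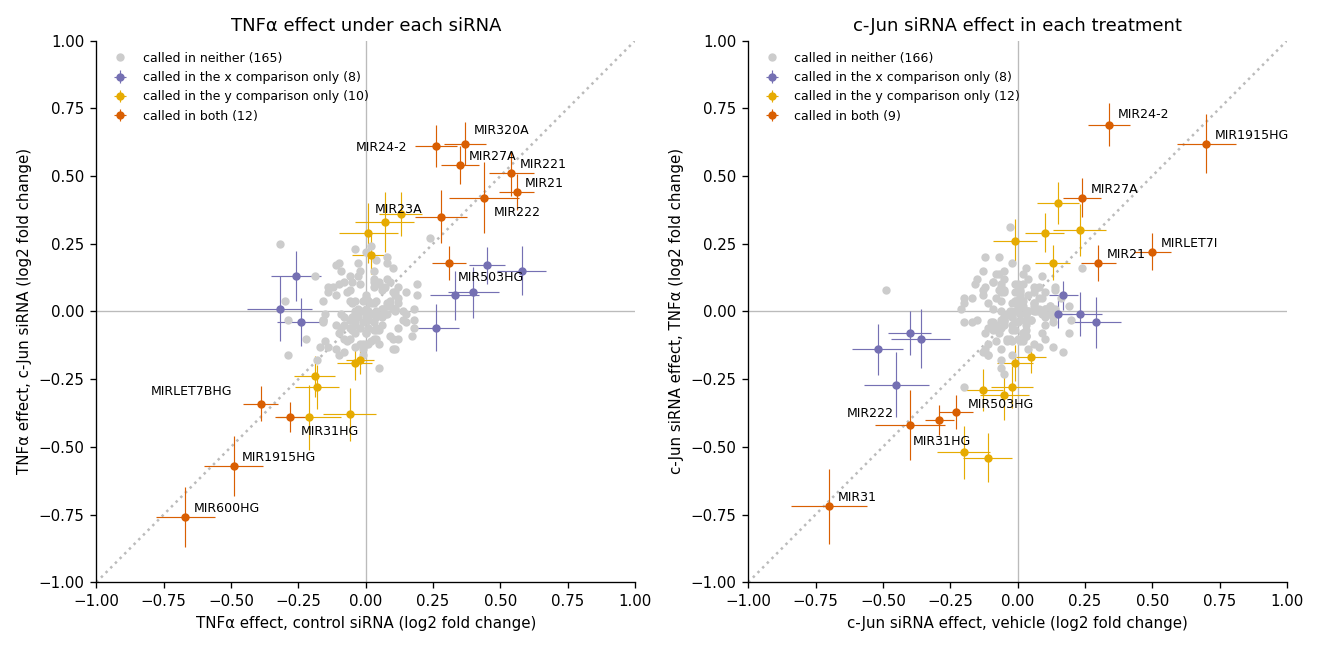
Log2 fold change and standard error of the 195 members for TNFα under each siRNA (left) and c-Jun siRNA in each treatment (right); grey points were called in neither comparison and carry no error bars, and the dotted line marks equal effects. In the left panel 12 members were called in both comparisons, in the right panel 9.

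Among the members that TNFα raised, MIR21, the gene of a microRNA that is abundant in many tumours and whose transcription AP-1 is known to drive, had the smallest p with control siRNA. MIR21 read 7.71, 7.83 and 7.79 in the siControl vehicle arrays, 8.20, 8.52 and 8.31 with siControl and TNFα, 8.06, 8.11 and 8.07 with siJun and vehicle, and 8.47, 8.59 and 8.52 with siJun and TNFα. Each TNFα group lay wholly above its vehicle group. The rise was 0.56 ± 0.066 log2 with control siRNA (1.48-fold, limma adjusted p = 1.52e-06) and 0.44 ± 0.066 with c-Jun siRNA (1.36-fold, adjusted p = 3.34e-05).

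MIR221 and MIR222, whose microRNAs repress the cell-cycle inhibitor CDKN1B, rose side by side. MIR221 read 7.53, 7.83 and 7.58, then 8.19, 8.31 and 8.04 with TNFα under control siRNA, and 7.63, 7.73 and 7.51, then 8.03, 8.14 and 8.21 under c-Jun siRNA. The TNFα arrays lay above the vehicle arrays under both siRNAs, with rises of 0.54 ± 0.083 (limma adjusted p = 3.83e-05) and 0.51 ± 0.083 (adjusted p = 8.85e-05). MIR222 read 6.27, 6.46 and 6.00 in the siControl vehicle arrays, 6.58, 6.84 and 6.63 with siControl and TNFα, 5.99, 5.82 and 5.72 with siJun and vehicle, and 6.09, 6.58 and 6.13 with siJun and TNFα. Its groups were apart as well, and it rose by 0.44 ± 0.13 (adjusted p = 0.0101) and 0.42 ± 0.13 (adjusted p = 0.0163). The MIR222 calls ended when siControl vehicle replicate 3 (adjusted p = 0.0722) or siControl TNFα replicate 2 (0.059) was left out, and, for c-Jun siRNA, siJun vehicle replicate 3 (0.0736) or siJun TNFα replicate 2 (0.112). Under c-Jun siRNA the calls of MIR221 (adjusted p = 0.13) and MIR222 (0.426) also ended with the position column as a fixed block.

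The chromosome 19 cluster rose as a unit. MIR27A, whose microRNA has been linked to growth of breast cancer cells, read 7.47, 7.55 and 7.58 in the siControl vehicle arrays, 7.95, 7.85 and 7.85 with siControl and TNFα, 7.85, 7.68 and 7.77 with siJun and vehicle, and 8.19, 8.23 and 8.49 with siJun and TNFα. The 4 groups stepped upward, with siControl TNFα and siJun vehicle as the middle pair. Its TNFα effects were 0.35 ± 0.071 (limma adjusted p = 0.000615) and 0.54 ± 0.071 (adjusted p = 8.73e-06).

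MIR24-2 and MIR23A are the other hairpins of that cluster. MIR24-2 read 5.80, 5.98 and 5.83, then 6.13, 6.21 and 6.05 with TNFα under control siRNA, and 6.21, 6.19 and 6.23, then 6.76, 6.74 and 6.96 under c-Jun siRNA. The siJun TNFα arrays stood highest, and MIR24-2 rose by 0.26 ± 0.078 (limma adjusted p = 0.0132) and by 0.61 ± 0.078 (adjusted p = 5.67e-06). MIR23A rose by 0.28 ± 0.097 (adjusted p = 0.0299) and 0.35 ± 0.097 (adjusted p = 0.00895), with group means of 5.94, 6.22, 6.16 and 6.52 in the same order of groups. With control siRNA, the MIR24-2 call ended without siControl vehicle replicate 1 (adjusted p = 0.0588) or siControl TNFα replicate 2 (0.0664), and the MIR23A call without siControl vehicle replicates 2 or 3 (0.116 and 0.0562) or siControl TNFα replicate 2 (0.143). With c-Jun siRNA, the MIR23A call ended without siJun TNFα replicates 2 or 3 (0.0516 and 0.0599).

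MIR320A, a hairpin known to be made without Drosha, read 6.86, 6.71 and 6.87 in the siControl vehicle arrays, 7.24, 7.07 and 7.24 with siControl and TNFα, 7.0, 7.01 and 6.87 with siJun and vehicle, and 7.72, 7.61 and 7.42 with siJun and TNFα. The TNFα arrays lay above the vehicle arrays in both cases, by 0.37 ± 0.078 (limma adjusted p = 0.00082) and 0.62 ± 0.078 (adjusted p = 4.26e-06).

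MIR503 and its host MIR503HG were the brightest members, and TNFα raised both under control siRNA. MIR503 read 9.89, 9.89 and 9.76 in the siControl vehicle arrays, 10.45, 10.51 and 10.32 with siControl and TNFα, 9.69, 9.94 and 9.59 with siJun and vehicle, and 9.71, 10.13 and 9.82 with siJun and TNFα. The siControl TNFα arrays lay above all others, and the siJun groups overlapped. MIR503 rose by 0.58 ± 0.091 with control siRNA (1.49-fold, limma adjusted p = 4.78e-05), and its change with c-Jun siRNA was 0.15 ± 0.091 (adjusted p = 0.265). MIR503HG read 10.05, 10.10 and 9.94, then 10.36, 10.44 and 10.22 under control siRNA, and 9.69, 9.96 and 9.73, then 9.99, 9.98 and 9.94 under c-Jun siRNA. It rose by 0.31 ± 0.063 (adjusted p = 0.000655) and by 0.18 ± 0.063 (adjusted p = 0.0431), the second with overlapping groups. That second call ended without any one of 7 arrays: siControl vehicle replicate 1 (0.0525), siControl TNFα replicate 1 (0.0515), siJun vehicle replicates 1 or 3 (0.218 and 0.158), or siJun TNFα replicates 1, 2 or 3 (0.113, 0.0907 and 0.067).

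**Figure D3:**
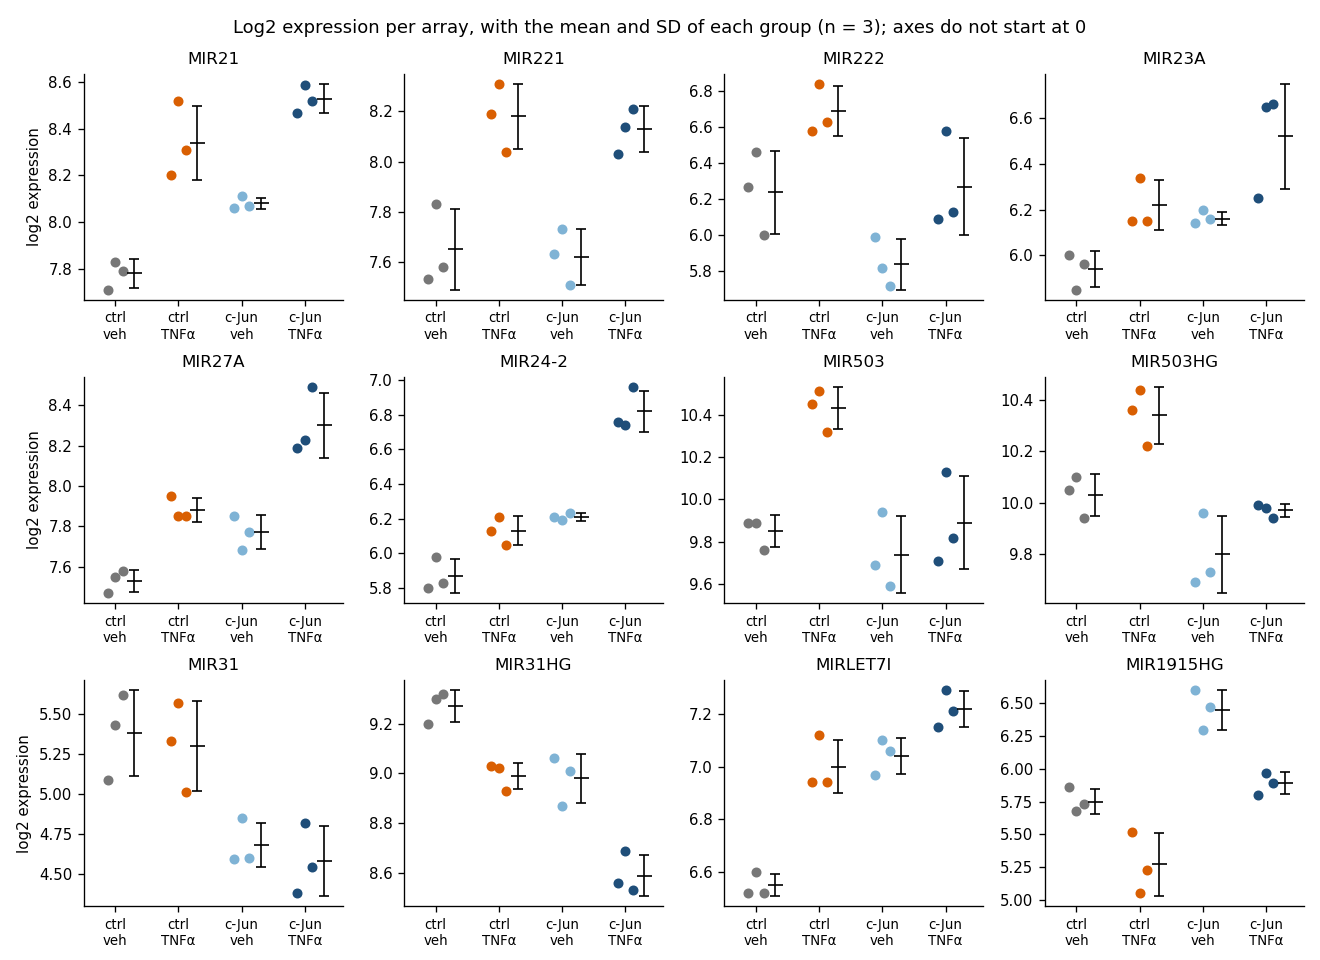
Log2 expression of 12 members in each array (points), with the mean and SD of each group (black, n = 3); ctrl and c-Jun name the siRNA, veh is vehicle, and the axes do not start at 0. For MIR21 all TNFα arrays lie above the vehicle arrays of the same siRNA, and for MIR31 the siJun arrays, 4.38 to 4.85, lie below the siControl arrays, 5.01 to 5.62.

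Host transcripts made up all 4 members that TNFα lowered under both siRNAs. MIR600HG, the host of miR-600, read 7.07, 7.40 and 7.21 in the siControl vehicle arrays, 6.32, 6.79 and 6.54 with siControl and TNFα, 6.91, 7.01 and 7.15 with siJun and vehicle, and 6.17, 6.36 and 6.28 with siJun and TNFα. All TNFα arrays lay below all vehicle arrays. MIR600HG fell by 0.67 on the log2 scale (SE 0.11, limma adjusted p = 4.89e-05) and by 0.76 (SE 0.11, adjusted p = 1.71e-05), the changes of greatest size among members in both TNFα comparisons. Over the 12 arrays, which fall into 4 groups, the genes whose levels followed it most closely were MAST3 (Pearson r = 0.978), BMPR2 (0.962), ZYG11B (0.962), CDC42BPA (0.961) and FBXL20 (0.96), given as a description.

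MIR1915HG read 5.86, 5.68 and 5.73 in the siControl vehicle arrays, 5.52, 5.05 and 5.23 with siControl and TNFα, 6.60, 6.30 and 6.47 with siJun and vehicle, and 5.80, 5.97 and 5.89 with siJun and TNFα. The siJun vehicle arrays were the highest and the siControl TNFα arrays the lowest. The TNFα effects were -0.49 ± 0.11 (limma adjusted p = 0.00114) and -0.57 ± 0.11 (adjusted p = 0.000369). MIRLET7BHG, which hosts hairpins of the let-7 family of growth-restraining microRNAs, had group means of 7.72 ± 0.084, 7.33 ± 0.092, 7.85 ± 0.038 and 7.51 ± 0.097 (SD, n = 3) in the order siControl vehicle, siControl TNFα, siJun vehicle and siJun TNFα. It fell by 0.39 (SE 0.065, adjusted p = 8.07e-05) and 0.34 (SE 0.065, adjusted p = 0.000429).

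A further 8 members were called with TNFα under control siRNA alone. Higher were MIR503, MIRLET7I (0.45 ± 0.068, limma adjusted p = 2.99e-05), MIR218-1 (0.40 ± 0.095, adjusted p = 0.0024), MIR193A (0.33 ± 0.091, adjusted p = 0.00862) and MIR30C1 (0.26 ± 0.086, adjusted p = 0.0266). Lower were MIR15A, MIR196A2 and MIR218-2, with changes of -0.26, -0.32 and -0.24 and adjusted p-values of 0.0387, 0.0447 and 0.0385. MIR30C1, MIR196A2 and MIR218-2 lay under the olfactory receptor percentile. The calls of MIR15A and of these 3 ended without at least 1 array: MIR15A without siControl vehicle replicate 1, 2 or 3 or siControl TNFα replicate 1 or 3 (adjusted p 0.0594 to 0.225), MIR30C1 without siControl vehicle replicate 1 or 2 or siControl TNFα replicate 2 or 3 (0.0502 to 0.157), MIR218-2 without siControl vehicle replicate 1 or 3 or siControl TNFα replicate 1 or 3 (0.0714 to 0.214), and MIR196A2 without any one of 9 arrays, all but siControl vehicle replicate 3, siControl TNFα replicate 3 and siJun TNFα replicate 1 (0.051 to 0.244).

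With c-Jun siRNA alone, TNFα raised MIR4453HG (0.36 ± 0.08, limma adjusted p = 0.00188), MIR186 (0.33, adjusted p = 0.0228), MIR326 (0.29, adjusted p = 0.0496) and MIR7-2 (0.21, adjusted p = 0.0358). It lowered MIR107 (-0.39, adjusted p = 0.0156), MIR15B (-0.38, adjusted p = 0.00596), MIR517C (-0.28, adjusted p = 0.0144), MIR99AHG (-0.24, adjusted p = 0.0247), MIR145 (-0.19, adjusted p = 0.0321) and MIR377 (-0.18, adjusted p = 0.013). MIR15B, MIR517C, MIR99AHG, MIR145 and MIR377 lay at or below the olfactory receptor percentile. Of these 10 calls, MIR4453HG and MIR15B held without each array in turn. Leaving out one siJun vehicle array ended those of MIR107, MIR186, MIR517C, MIR145 and MIR7-2 (replicate 1: adjusted p = 0.0563, 0.101, 0.106, 0.0847 and 0.0659), MIR107, MIR186, MIR326, MIR145 and MIR7-2 (replicate 2: 0.0615, 0.0671, 0.205, 0.173 and 0.0846), and MIR326, MIR99AHG and MIR7-2 (replicate 3: 0.111, 0.115 and 0.0797). Leaving out one siJun TNFα array ended those of MIR107, MIR186, MIR99AHG and MIR7-2 (replicate 1: 0.11, 0.08, 0.116 and 0.104), MIR326, MIR517C, MIR145, MIR377 and MIR7-2 (replicate 2: 0.248, 0.0652, 0.101, 0.0755 and 0.107), and MIR326, MIR517C and MIR145 (replicate 3: 0.0702, 0.0826 and 0.0978). MIR326 was also lost without siControl vehicle replicate 3 (0.0573) or siControl TNFα replicates 1, 2 or 3 (0.0593, 0.0577 and 0.0548). The MIR4453HG and MIR15B calls ended with the position column as a fixed block (adjusted p = 0.375 and 0.815). Under that block 9 members were called in place of 22, 7 of them among the 22, and the calls of MIR31HG (-0.28, limma adjusted p = 0.109), MIR23A (0.48, 0.118) and MIR503HG (0.03, 0.925) in this comparison also ended. Each bracket gives the change and its adjusted p under the block. In the other comparisons, the block also ended calls, such as that of MIR24-2 with TNFα and control siRNA (0.22, 0.092). With c-Jun siRNA in vehicle, 12 members were called under the block in place of 17, and 7 of them were among the 17. Calls that ended there included those of MIR503HG (-0.14, 0.333), MIR147A (-0.33, 0.051), MIR222 (-0.16, 0.513) and MIR27A (0.19, 0.223).

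c-Jun siRNA changed a similar number of members. In vehicle, 9 were higher and 8 lower than with control siRNA, 17 of 195 or 8.72%, against 28.9% of all genes (14.4% higher and 14.5% lower). The groups did not overlap in 38 members, 19.5%, against 39.2% of all genes. With TNFα, 10 were higher and 11 lower, 21 or 10.8%, against 28.5% (14.1% higher and 14.4% lower). There the groups did not overlap in 31 members, 15.9%, against 38.5%. Median changes were -0.006 and -0.004, against -0.007 and 0.001 for all genes. Of the brighter 69 members 21.7% and 23.2% were called, against 37.3% and 36.7% of all genes above the percentile, and of the 126 dimmer ones 1.59% and 3.97%, against 3.06% and 3.49%. Without siControl vehicle replicate 2 the first count was 10 in place of 17.

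Both c-Jun siRNA comparisons, which share no arrays either, called 9 members in the same direction, 52.9% of the first list and 42.9% of the second (67.0% and 67.9% for all genes). MIR1915HG, MIR21, MIR24-2, MIR27A and MIRLET7I were higher with c-Jun siRNA, and MIR222, MIR31, MIR31HG and MIR503HG were lower. MIR21, MIR222, MIR24-2, MIR27A, MIR1915HG, MIR31HG and MIR503HG were thereby called in all 4 pairwise comparisons.

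MIR31, whose microRNA is known to restrain metastasis of breast cancer cells, fell the most. MIR31 read 5.09, 5.43 and 5.62 in the siControl vehicle arrays, 5.33, 5.57 and 5.01 with siControl and TNFα, 4.59, 4.85 and 4.60 with siJun and vehicle, and 4.38, 4.82 and 4.54 with siJun and TNFα. All siJun arrays lay below all siControl arrays, while the treatments overlapped. The siJun arrays lay on both sides of the olfactory receptor 95th percentile of 4.64, so these levels are near background. MIR31 fell by 0.70 in vehicle (SE 0.14, limma adjusted p = 0.000949) and by 0.72 with TNFα (SE 0.14, adjusted p = 0.000739). Its TNFα effects were -0.08 ± 0.14 and -0.10 ± 0.14 (adjusted p = 0.757 and 0.70).

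MIR31HG, the long noncoding transcript that hosts MIR31, read 9.20, 9.30 and 9.32 in the siControl vehicle arrays, 9.03, 9.02 and 8.93 with siControl and TNFα, 9.06, 8.87 and 9.01 with siJun and vehicle, and 8.56, 8.69 and 8.53 with siJun and TNFα. The siControl vehicle arrays were highest and the siJun TNFα arrays lowest, with the other groups between them and overlapping. MIR31HG fell with c-Jun siRNA by 0.29 (SE 0.055, limma adjusted p = 0.000377) and 0.40 (SE 0.055, adjusted p = 1.55e-05), and with TNFα by 0.28 (SE 0.055, adjusted p = 0.000441) and 0.39 (SE 0.055, adjusted p = 1.91e-05).

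MIRLET7I, a gene of the let-7 family, read 6.52, 6.60 and 6.52 in the siControl vehicle arrays, 6.94, 7.12 and 6.94 with siControl and TNFα, 6.97, 7.10 and 7.06 with siJun and vehicle, and 7.15, 7.29 and 7.21 with siJun and TNFα. The siControl vehicle arrays lay below all others. With c-Jun siRNA it rose by 0.50 ± 0.068 in vehicle (1.41-fold, limma adjusted p = 1.39e-05) and by 0.22 ± 0.068 with TNFα (1.17-fold, adjusted p = 0.0186). The second call ended without siControl TNFα replicates 1 or 3 (adjusted p = 0.0809 and 0.0842) or siJun TNFα replicate 2 (0.0812).

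MIR1915HG rose with c-Jun siRNA by 0.70 ± 0.11 in vehicle (1.62-fold, limma adjusted p = 4.74e-05) and by 0.62 ± 0.11 with TNFα (1.54-fold, adjusted p = 0.000164), opposite to its fall with TNFα. MIR24-2 rose by 0.34 ± 0.078 (adjusted p = 0.00237) and 0.69 ± 0.078 (1.61-fold, adjusted p = 1.62e-06), and MIR27A by 0.24 ± 0.071 (adjusted p = 0.0166) and 0.42 ± 0.071 (adjusted p = 0.000144). MIR23A rose with TNFα (0.30 ± 0.097, adjusted p = 0.0254), and its change in vehicle was 0.23 ± 0.097 (adjusted p = 0.092). Without siControl vehicle replicate 1 (0.0717) or siJun vehicle replicate 1 (0.0888) the first MIR27A call ended, and the MIR23A call ended without siControl TNFα replicates 1 or 3 (0.0901 and 0.0951) or siJun TNFα replicates 2 or 3 (0.12 and 0.135).

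MIR21 was 0.30 ± 0.066 higher with c-Jun siRNA in vehicle (limma adjusted p = 0.00162) and 0.18 ± 0.066 higher with TNFα (adjusted p = 0.0467), the second with overlapping groups and lost without any one of 9 arrays, all but siControl vehicle replicate 1, siControl TNFα replicate 2 and siJun TNFα replicate 1 (adjusted p 0.0521 to 0.258). MIR222 fell by 0.40 (SE 0.13, adjusted p = 0.0243) and 0.42 (SE 0.13, adjusted p = 0.0185), whereas MIR221 beside it changed by -0.02 ± 0.083 and -0.05 ± 0.083 (adjusted p = 0.88 and 0.712). The MIR222 calls ended without siControl vehicle replicates 1 or 2 (0.0681 and 0.141) or siJun vehicle replicates 2 or 3 (0.0645 and 0.0995), and with TNFα without siControl TNFα replicate 2 (0.0951) or siJun TNFα replicates 1 or 3 (0.0973 and 0.0915). The difference between MIR221 and MIR222 in this response was not tested.

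MIR503HG fell by 0.23 in vehicle (SE 0.063, limma adjusted p = 0.00832) and 0.37 with TNFα (SE 0.063, adjusted p = 0.000176), and MIR503 by 0.54 with TNFα (SE 0.091, adjusted p = 0.000145). The MIR503 change in vehicle was -0.11 ± 0.091 (adjusted p = 0.45). Without siJun vehicle replicate 1 the MIR503HG call in vehicle ended (adjusted p = 0.0606). Both c-Jun siRNA comparisons had calls that ended within a position column: in vehicle 6 of 17 members were called within column 5, and with TNFα 10 within column 7, of which 9 were among the 21, and 0 within column 9, where a single siControl array stands and 22 members had an unadjusted limma p under 0.05.

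In vehicle alone, c-Jun siRNA lowered MIR15A and MIR147A. MIR15A, which with MIR16-1 lies in the tumour-suppressor transcript DLEU2, read 5.96, 6.02 and 5.99 in the siControl vehicle arrays, 5.55, 5.98 and 5.68 with siControl and TNFα, 5.44, 5.46 and 5.50 with siJun and vehicle, and 5.59, 5.69 and 5.52 with siJun and TNFα. The siControl vehicle arrays lay above every siJun array, and the fall was 0.52 on the log2 scale (SE 0.093, limma adjusted p = 0.000229). MIR147A fell by 0.40 (SE 0.08, adjusted p = 0.000771), from a mean of 5.35 to 4.95. The other 6 called in vehicle alone were MIRLET7A2 and MIR186, lower, and MIR218-1, MIR188, MIR135A1 and MIR377, higher, and each of these calls ended without at least 1 array. That array was siControl vehicle replicate 2 for MIRLET7A2 (adjusted p = 0.0521), this one (0.0968) or siJun vehicle replicate 1 (0.0662) for MIR186, any array of these 2 groups for MIR377 (0.058 to 0.115), siControl vehicle replicates 1 or 2 or siJun vehicle replicates 1 or 3 for MIR135A1 (0.0532 to 0.0645), and any array but siControl vehicle replicate 1, siControl TNFα replicate 2 and siJun vehicle replicates 1 and 3 for MIR188 (0.0524 to 0.239). MIR218-1 is taken up with its host.

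With TNFα alone, 12 members were called. MIR15B, which shares its seed with miR-15a, read 4.44, 4.81 and 4.81 in the siControl vehicle arrays, 4.44, 4.67 and 4.77 with siControl and TNFα, 4.44, 4.54 and 4.48 with siJun and vehicle, and 4.06, 4.11 and 4.16 with siJun and TNFα. The siJun TNFα arrays lay below all others, at the level of background genes, and the fall with c-Jun siRNA was 0.52 (SE 0.098, limma adjusted p = 0.000457). MIRLET7G fell by 0.29 (SE 0.076, adjusted p = 0.00679), MIR93 by 0.31 (adjusted p = 0.0139), MIR29C by 0.28 (adjusted p = 0.0106), MIR34B by 0.19 (adjusted p = 0.0407) and MIR323A by 0.17 (adjusted p = 0.0304). MIR320A rose by 0.40 ± 0.078 (adjusted p = 0.000624), MIR7-2 by 0.29 ± 0.072 (adjusted p = 0.00497), MIR9-1HG by 0.26 (adjusted p = 0.0219) and MIRLET7BHG by 0.18 (adjusted p = 0.047). Of these, MIR93, MIR29C, MIR34B, MIR323A, MIR9-1HG and MIRLET7BHG lost the call without at least 1 array. For MIR93 it was siJun TNFα replicate 2 (adjusted p = 0.0696), for MIR29C siControl TNFα replicate 2 (0.073) or siJun TNFα replicate 3 (0.0594), and for MIR9-1HG siControl TNFα replicate 1 (0.0914) or siJun TNFα replicates 2 or 3 (0.0714 and 0.116). MIR34B lost it without siControl TNFα replicates 1 or 2 or siJun TNFα replicates 1 or 3 (0.112 to 0.188), MIR323A without siControl TNFα replicates 2 or 3 or siJun TNFα replicates 1 or 3 (0.0502 to 0.141), and MIRLET7BHG without siControl vehicle replicate 2, siControl TNFα replicates 2 or 3, any siJun vehicle array or siJun TNFα replicates 1 or 2 (0.052 to 0.186).

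No member was called for the interaction, the difference between the TNFα effects under the 2 siRNAs, in the limma fit, against 5.47% of all genes (1.88% higher and 3.59% lower). At an unadjusted limma p under 0.05 there were 18 of 195 members, 9.23%, against 16.5% of all genes. MIR503 came nearest at -0.43 ± 0.13 (limma adjusted p = 0.062). It was called under 5 settings: after leaving out the 30% or 50% of genes with the lowest means (adjusted p = 0.0324 and 0.0205), with genes under the olfactory receptor percentile left out (0.0374), with array weights (0.0334) and with the replicate number as a block (0.00397). It was also called without siJun vehicle replicate 3 (-0.50, adjusted p = 0.0325) or siJun TNFα replicate 2 (-0.55, adjusted p = 0.00396). MIR24-2 (0.35 ± 0.11, adjusted p = 0.0803), MIR15A (0.39 ± 0.13, adjusted p = 0.108), MIRLET7I (-0.28 ± 0.096, adjusted p = 0.121) and MIR147A (0.31 ± 0.11, adjusted p = 0.139) had the next smallest p-values. MIR24-2 was called with array weights (0.39, adjusted p = 0.0393) and MIR15A without siControl TNFα replicate 2 (0.51, adjusted p = 0.00962). Differences in which members were called under each siRNA are therefore not shown to be differences in response.

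Members inside other genes were set beside their hosts. RefSeq placed 58 members within 49 measured genes on the same strand. With control siRNA TNFα changed the host in 25 of the 58 pairs and the member in 6, and 4 pairs changed together, in the same direction. The corresponding counts were 23, 5 and 2 for TNFα with c-Jun siRNA, 22, 6 and 3 for c-Jun siRNA in vehicle, and 15, 6 and 5 for c-Jun siRNA with TNFα, where 4 of the 5 had the same direction. The host was called in 43.1%, 39.7%, 37.9% and 25.9% of the 58 pairs, in which some of the 49 hosts count more than once. Of all genes above the olfactory receptor percentile, each counted once, 45.9%, 38.2%, 37.3% and 36.7% were called. The members' shares were 10.3%, 8.62%, 10.3% and 10.3%.

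**Figure D4:**
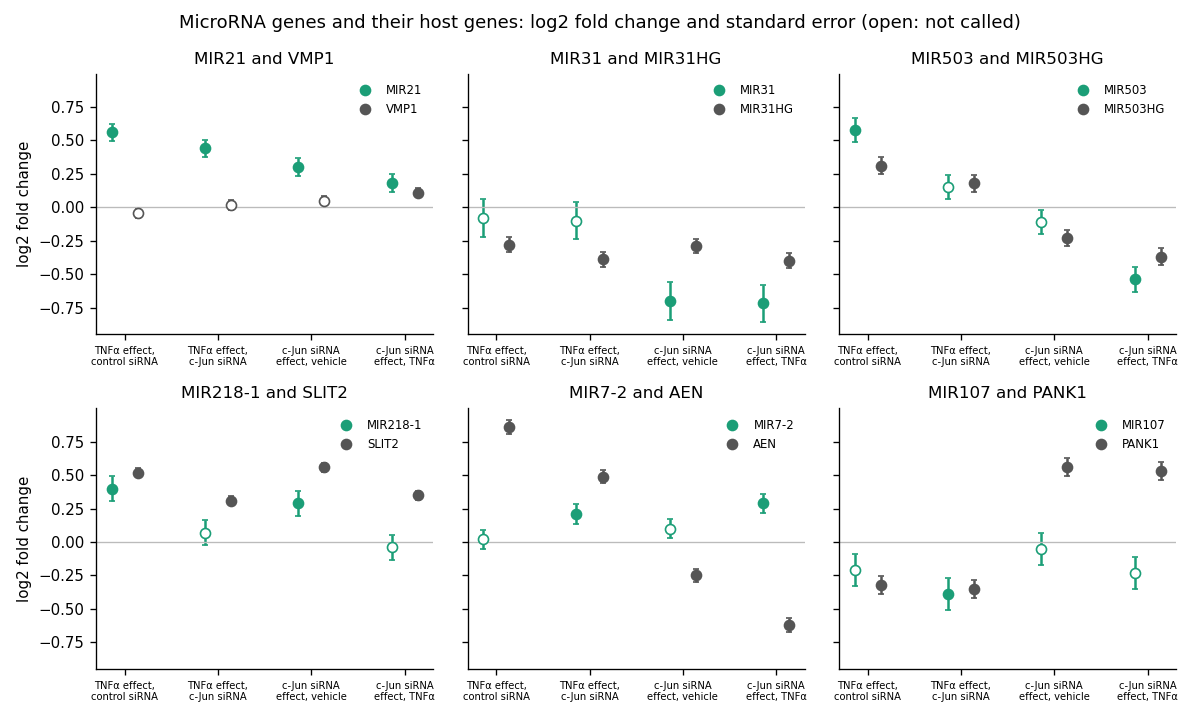
Log2 fold change with standard error for 6 microRNA genes (green) and the genes that hold them (grey) in the 4 pairwise comparisons; open circles were not called. MIR21 lies above VMP1 in each comparison, and MIR7-2 and AEN moved in opposite directions with c-Jun siRNA and TNFα, by 0.29 and -0.62.

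MIR21 lies within VMP1, an autophagy gene. With TNFα VMP1 changed by -0.04 ± 0.037 and 0.02 ± 0.037, where MIR21 rose by 0.56 and 0.44. With c-Jun siRNA in vehicle MIR21 rose by 0.30, and VMP1 changed by 0.05 and was not called. With c-Jun siRNA and TNFα both were called higher, MIR21 by 0.18 and VMP1 by 0.11 (limma adjusted p = 0.0467 and 0.0274). Differences between MIR21 and VMP1 were not tested. MIR218-1 lies in SLIT2, a guidance-factor gene, and both rose with TNFα under control siRNA (0.40 and 0.52) and with c-Jun siRNA in vehicle (0.29 and 0.56). SLIT2 also rose in the other 2 comparisons (0.31 and 0.35), in which MIR218-1 changed by 0.07 and -0.04. The MIR218-1 call for c-Jun siRNA in vehicle ended without siControl vehicle replicates 2 or 3 (limma adjusted p = 0.119 and 0.0653) or siJun vehicle replicate 3 (0.143).

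MIR31 and MIR31HG both fell with c-Jun siRNA, MIR31 by 0.70 and 0.72 and its host by 0.29 and 0.40, whereas with TNFα the host alone was called. MIR107 fell with PANK1, a coenzyme A synthesis gene, under TNFα and c-Jun siRNA (-0.39 and -0.35), while PANK1 rose with c-Jun siRNA (0.56 and 0.53) and MIR107 changed by -0.05 and -0.23. That MIR107 call ended without siJun vehicle replicate 1 (limma adjusted p = 0.0563) or 2 (0.0615) or siJun TNFα replicate 1 (0.11). For MIR15A, which fell by 0.52 with c-Jun siRNA in vehicle, the host DLEU2 was not called (0.15 ± 0.087, limma adjusted p = 0.259), and the difference between them was not tested. Of the pair MIR7-2 and AEN, AEN, a nuclease gene activated by p53, rose with TNFα by 0.86 and 0.49 and fell with c-Jun siRNA by 0.25 and 0.62.

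Neighbouring hairpins were also compared. In RefSeq, 72 members form 30 groups on the same strand with gaps of at most 10000 bases. Of these groups 11 had a called member, and 2 had 2 or more called in the same comparison: MIR24-2, MIR27A and MIR23A, and MIR221 and MIR222. In both, every member was called in at least 1 comparison. Elsewhere single hairpins were called beside uncalled neighbours, such as MIR15A beside MIR16-1 (-0.52 and -0.06 with c-Jun siRNA in vehicle), MIR15B beside MIR16-2 (-0.52 and -0.10 with c-Jun siRNA and TNFα), and MIRLET7A2 beside MIR100 (-0.45 and -0.06 in vehicle).

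Promoter sequences of 12 of the 15 host genes were in RefSeq, each from 250 bases before to 50 after the start. None of the 12 held TGANTCA, the core AP-1 motif, or the consensus NF-κB motif on either strand. Over 27305 promoters of the same length the shares holding them were 7.76% and 0.579%. This says only that these letters are not in those windows. Other forms of the AP-1 and NF-κB motifs were not searched for.

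Of 22 measured microRNA genes linked in the literature to NF-κB or AP-1, from 30 listed, TNFα raised MIR21, MIR221 and MIR222 and lowered MIR31HG under both siRNAs. These 4 are 18.2% of the list, against 35.7% and 29.6% of all genes and 10.3% and 11.3% of all members. With c-Jun siRNA MIR21 was higher and 4 were lower in each treatment: MIR222, MIR31, MIR31HG and MIR147A in vehicle, and MIR222, MIR31, MIR31HG and MIR29C with TNFα, 22.7% of the list each time, against 28.9% and 28.5% of all genes. The list's median changes were 0.026, -0.009, -0.022 and -0.037 in the order TNFα with control siRNA, TNFα with c-Jun siRNA, c-Jun siRNA in vehicle and c-Jun siRNA with TNFα, against -0.023, -0.016, -0.007 and 0.001 for all genes. The let-7 family had 12 measured members, of which MIRLET7I, MIRLET7BHG, MIRLET7A2 and MIRLET7G were called in at least 1 pairwise comparison. Of all 195 members, 41 were called in at least 1. By single comparison, in the same order, 2, 1, 2 and 3 of the 12 were called. The shares of all genes called were 35.7%, 29.6%, 28.9% and 28.5%.

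MicroRNAs known to hold cells in an epithelial state, the miR-200 group and miR-34, were at 3.29 to 5.31 in this mesenchymal line. Of the 7 measured, MIR34B was called once, lower with c-Jun siRNA and TNFα, 14.3% of the list. Of 6 measured genes of the miR-17 clusters, which promote proliferation, 1 was called, MIR93. It was lower in the same comparison, 16.7% of the list. Of all genes 28.5% were called there. In the other pairwise comparisons both lists had 0%, against 28.9% to 35.7% of all genes.

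Genes that make and use microRNAs were also listed. Of 34 measured genes of the list, TNFα raised 12 and lowered 10 with control siRNA and raised 9 and lowered 9 with c-Jun siRNA. c-Jun siRNA raised 7 and lowered 5 in vehicle, and raised 9 and lowered 7 with TNFα. These are 64.7%, 52.9%, 35.3% and 47.1% of the list, against 35.7%, 29.6%, 28.9% and 28.5% of all genes and 45.9%, 38.2%, 37.3% and 36.7% of all genes above the olfactory receptor percentile. Neither set of genes was matched to the levels of the list, whose 12-array means ran from 3.79 to 11.72. The list's medians were 0.006, -0.045, 0.004 and -0.004, against -0.023, -0.016, -0.007 and 0.001 for all genes.

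**Figure D5:**
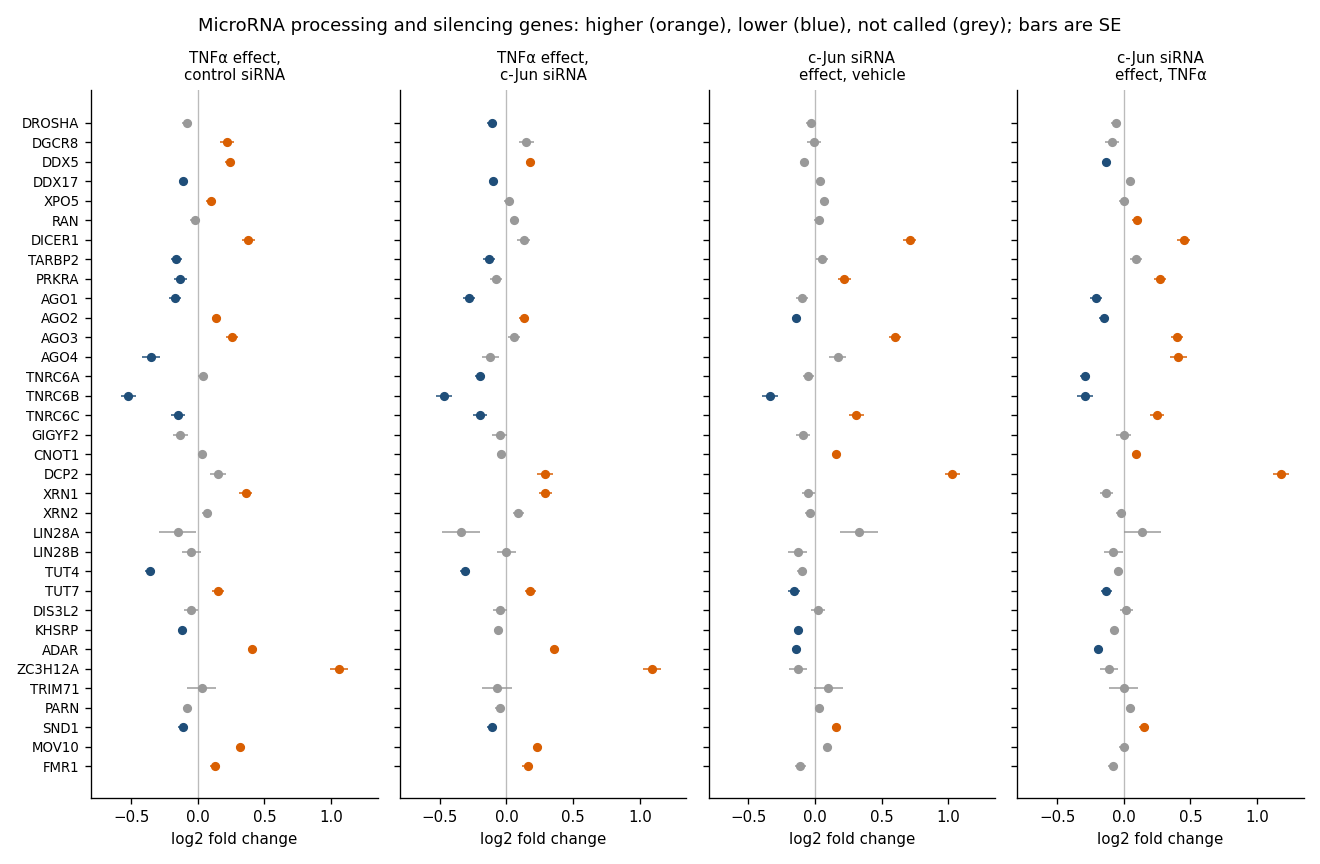
Log2 fold change and standard error of 34 microRNA processing and silencing genes in the 4 pairwise comparisons, coloured by direction where called. ZC3H12A stands out with TNFα (1.06 and 1.09) and DCP2 with c-Jun siRNA (1.03 and 1.18).

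Among genes of the nuclear step, DROSHA fell by 0.11 with TNFα and c-Jun siRNA (limma adjusted p = 0.0314), a call that ended without siJun vehicle replicate 3 (0.139) or siJun TNFα replicates 2 or 3 (0.0967 and 0.122), and DGCR8 rose with TNFα under control siRNA by 0.22 ± 0.054 (limma adjusted p = 0.00301). DICER1, the cytoplasmic hairpin nuclease, read 9.77, 9.78 and 9.74 in the siControl vehicle arrays, 10.06, 10.20 and 10.19 with siControl and TNFα, 10.39, 10.52 and 10.50 with siJun and vehicle, and 10.66, 10.64 and 10.49 with siJun and TNFα. The siControl vehicle arrays were lowest and the siJun groups, which overlapped, highest. DICER1 rose by 0.71 ± 0.048 with c-Jun siRNA in vehicle (1.63-fold, adjusted p = 2.31e-09), by 0.45 ± 0.048 with TNFα (adjusted p = 8.96e-07), and by 0.38 ± 0.048 with TNFα under control siRNA (adjusted p = 3.73e-06).

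Of the Argonautes, which hold the mature strand, AGO3 rose with c-Jun siRNA by 0.60 ± 0.045 and 0.40 ± 0.045. AGO2 changed by -0.14 and -0.15 with c-Jun siRNA and rose with TNFα by 0.14 and 0.13, the last call lost without siJun vehicle replicate 1 (limma adjusted p = 0.0672). With c-Jun siRNA and TNFα, AGO1 fell by 0.21 and AGO4 rose by 0.41, and in vehicle their changes of -0.10 and 0.17 were not called (adjusted p = 0.125 and 0.0553). TNRC6B, a silencing scaffold, fell in all 4 comparisons, by 0.52, 0.47, 0.34 and 0.29. Its relative TNRC6C rose with c-Jun siRNA by 0.31 and 0.25, and TNRC6A fell with c-Jun siRNA and TNFα by 0.29. DCP2, the mRNA decapping enzyme, rose with c-Jun siRNA by 1.03 ± 0.058 and 1.18 ± 0.058 (limma adjusted p = 1.71e-10 and 3.66e-11). ZC3H12A, an inflammatory ribonuclease that can cut microRNA hairpins, rose with TNFα by 1.06 ± 0.066 and 1.09 ± 0.066 (adjusted p = 2.54e-10 and 2.3e-10). TUT4, which tails let-7 precursors, fell with TNFα by 0.36 and 0.31, and ADAR, which edits double-stranded RNA, rose by 0.41 and 0.36. LIN28A and LIN28B, the let-7 inhibitors, lay at 4.46 and 3.79, under the olfactory receptor percentile, and neither was called.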

How the data were processed

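Per the labels, total RNA was labelled as sense-strand cDNA, and the submitters' processing notes name Affymetrix Expression Console 1.1 and PLIER without their roles. The authors deposited 1 value per probe set and array, taken as log2 because they span 2.27 to 13.97. Quartiles differed between arrays by at most 0.061, and nothing was normalised further. The number of arrays limits the precision.

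Of 33297 probe sets, 19181 had 1 symbol, 2055 several and 12061 none. The brightest probe set of each gene by 12-array mean left 17958 genes, and dim genes stayed in. limma 3.58.1 in R 4.3.3 fitted 1 mean per group to 12 arrays (8 residual degrees of freedom, 9.29 prior) with a mean-variance trend and two-sided contrasts, and p-values were adjusted over all genes. The fit was tested on simulated data. Errors of changes are standard errors, and those of means are SDs. Python 3.11.15, pandas 2.3.3 and matplotlib 3.10.9 served for tables and plots.

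Members, lists and the rule for naming were chosen with earlier results of these data known. Named are host genes, the 10 brightest members, for each pairwise comparison up to 8 rises and 8 falls whose groups do not overlap, and called members of the lists; the remaining called members are named after their values were seen. The processing list had 35 entries, 34 of them measured. Equal replicate numbers did not pair arrays: of 18 pairs, 0 had deviations correlated above 0.1 (-0.0586 to 0.0884). Alternatives were normalisation, centring, floors, filters on dim genes, other probe set rules, variance models, array weights, stricter thresholds, a replicate block, position columns, averaging a possible second run and leaving out each array.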

Additional observations from a re-analysis of the deposited data

Results flagged for a closer look

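For 2 genes of the microRNA machinery the TNFα effect differed between the siRNAs by the test of the difference itself, 5.88% of the 34 measured, against 5.47% of all genes. DICER1 had an interaction of -0.26 ± 0.068 (limma adjusted p = 0.0334): it rose by 0.38 with TNFα under control siRNA, and its change under c-Jun siRNA was 0.13 ± 0.048 (adjusted p = 0.057). That call ended without any one of 8 arrays, namely the 3 siControl vehicle arrays, siControl TNFα replicates 2 and 3, siJun vehicle replicates 2 and 3 and siJun TNFα replicate 3, with adjusted p-values reaching at most 0.129 over all settings.

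TNRC6A, which encodes a scaffold that Argonaute recruits, had an interaction of -0.24 ± 0.054 (limma adjusted p = 0.0115). It read 9.77, 9.92 and 9.85 in the siControl vehicle arrays, 9.86, 9.91 and 9.87 with siControl and TNFα, 9.78, 9.80 and 9.79 with siJun and vehicle, and 9.57, 9.62 and 9.57 with siJun and TNFα. The siJun TNFα arrays alone lay below all others. This call held without each array in turn and ended with the position column as a fixed block (adjusted p = 0.122).

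Probe sets that hold a microRNA symbol together with other symbols are outside the comparisons, and 8 of the 45 were higher and 4 lower with TNFα under control siRNA, 26.7% in all, against 35.7% of all genes (13.8% higher and 21.9% lower). The strongest, probe set 8068022, read 5.07, 5.12 and 5.53 in the siControl vehicle arrays, 8.41, 8.15 and 8.10 with siControl and TNFα, 3.93, 4.45 and 4.11 with siJun and vehicle, and 6.58, 6.43 and 6.44 with siJun and TNFα. It rose by 2.98 and 2.32 with TNFα, changed by -1.08 and -1.74 with c-Jun siRNA, and had an interaction of -0.66 (limma adjusted p = 0.0422). No gene is named for it, because its symbols cannot be told apart.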

How the results depend on the processing

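Of the 80 member calls in the pairwise comparisons, 43 held without each array in turn and 37 ended without at least 1. Under every alternative that kept the gene, 12 held. Filters on dim genes were not counted against the genes they left out. For c-Jun siRNA in vehicle, MIR31 was thus scored under 29 alternatives and MIR21 under 31. Leaving out 1 array gave 17 to 22 members called for TNFα with control siRNA, 16 to 24 for TNFα with c-Jun siRNA, 10 to 18 for c-Jun siRNA in vehicle, 14 to 21 for c-Jun siRNA with TNFα, and 0 to 2 for the interaction. For the processing genes it gave 17 to 24, 16 to 19, 12 to 16, 14 to 16 and 1 to 3 in the same order. For members the counts of 20, 22, 17 and 21 moved by over 1.5 times to 8, 7, 4 and 7 without the dimmest 50% of genes, to 13, 12, 10 and 11 at an adjusted p under 0.01, and to 4, 6, 3 and 5 at a change of at least 0.5 log2. A floor at the 25th percentile gave 13, 9 and 12 in the last 3, the position column as a fixed block 9 in the second, and within-column fits 6 (column 5, c-Jun siRNA in vehicle), 10 (column 7) and 0 (column 9, both c-Jun siRNA with TNFα). For c-Jun siRNA in vehicle the position block gave 12 member calls, of which 7 were among the 17. Member interaction calls went from 0 to 1 with the floor, the dimmest 30% or 50% left out or the olfactory receptor filter, and to 2 with array weights. For the processing genes the counts of 22, 18, 12 and 16 became 2, 1, 3 and 1 at 0.5 log2, 6 in the second with the position block, and 5 (column 5), 8 (column 7) and 0 (column 9, with 11 at an unadjusted limma p under 0.05) within columns. Their 2 interaction calls became 1 with centring, the floor or no variance trend, and 0 at an adjusted p under 0.01, at 0.5 log2 or with the position block, where 4, 4 and 3 had an unadjusted limma p under 0.05. MIR107 with TNFα and c-Jun siRNA reversed to 0.07 with the position column as a fixed block, and the cause was not tested. With the replicate number as a block the member counts were 20, 23, 16 and 22, and 1 for the interaction, MIR503; the numbers do not pair the arrays. No within-column value could be had for TNFα with c-Jun siRNA or for the interaction, and fitting the compared groups by themselves does not apply to the interaction. Signal near background limits the 126 dimmer members, where calls rest on differences of at most 0.52 log2.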
